A study of Mus musculus with 9 samples.

Results

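The Kcn genes encode the pore-forming subunits of the potassium channels and many of their accessory subunits. They were taken as the rows of the expression table whose NCBI gene ID has a mouse symbol beginning with Kcn and whose count was above 0 in some library. Of 98 Kcn rows, 93 met this rule, among 19250 features above 0 in the whole table. The 5 other rows, Kcnip2, Kcnk16, Kcnk18, Kcns2 and the non-coding Kcnmb4os2, were listed at 0 in all libraries. The choice used symbols and detection alone and no difference between groups.

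RNA-seq was done on medial prefrontal cortex (mPFC) of DBA2/J mice, an inbred strain. The SA:ANH-KDM5Ci group had been through 5 days of social defeat stress, was sorted into the SA:ANH subtype and received an inhibitor of KDM5C, a histone demethylase that removes methyl marks from histone H3. The SA:ANH-vehicle group had the same stress and subtype and received vehicle, which its treatment label calls saline. The NS group was not stressed and received saline. Each group had 3 libraries. All 3 groups shared strain and brain region. What SA:ANH stands for, the inhibitor's name, dose and schedule, and the mice's age and sex are not stated in the labels. The labels do not say whether each library is a different mouse, so a p-value here reflects a spread among libraries that may be technical repeats. In the main fit that spread was estimated within the groups over all 9 libraries together, with information shared across genes. The design bears on 3 questions: how the stressed mice given the inhibitor differed from those given vehicle, how the stressed mice given vehicle differed from unstressed mice, and how the stressed mice given the inhibitor differed from unstressed mice. The comparisons share groups and are not independent of each other.

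Libraries held from 29845097 to 42196472 counts, and Kcn genes took from 0.564% to 0.630% of them, highest in SA:ANH-vehicle replicate 1. The libraries carried markers of cortical excitatory neurons, with Slc17a7, the vesicular glutamate transporter of these cells, at 1481 to 1687 CPM (read counts scaled to library size). They also carried markers of striatal neurons, which lie outside the cortex: 13 such genes summed to 453 to 889 CPM in SA:ANH-KDM5Ci, 386 to 481 CPM in SA:ANH-vehicle and 365 to 527 CPM in NS. None of these 13 genes passed the test in any comparison. All 13 had positive fold changes in SA:ANH-KDM5Ci, with a median log2 of 0.94 against SA:ANH-vehicle and 0.92 against NS. The 10 meningeal markers summed to 83.4 to 91.5 CPM in SA:ANH-KDM5Ci, 121 to 191 CPM in SA:ANH-vehicle and 106 to 170 CPM in NS, so the inhibitor group lay below both others. Of the 10, 4 (Foxc1, Foxc2, Foxd1 and Lum) fell in SA:ANH-KDM5Ci against SA:ANH-vehicle and 2 (Foxc1 and Foxd1) against NS. None of the 7 excitatory, 7 astrocyte or 7 oligodendrocyte markers passed in any comparison. All 7 oligodendrocyte markers had positive fold changes in SA:ANH-KDM5Ci, with a median log2 of 0.45 against SA:ANH-vehicle and 0.55 against NS. In SA:ANH-KDM5Ci against both other groups, the precursor marker Olig2 rose, and the mural marker Pdgfrb and 3 of 7 endothelial markers fell. In each of these comparisons 1 of 5 thalamic markers fell too. The interneuron marker Lhx6 rose in SA:ANH-KDM5Ci against NS. Among all marker genes used, Acta2 of mural cells alone was listed at 0 throughout. In bulk tissue, fewer cells of a type and less RNA per cell cannot be told apart.

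Potassium channels let potassium leave the cell along its gradient. They hold neurons near rest, repolarise the action potential and set how often a neuron can fire. Voltage-gated (Kv) channels open on depolarisation and are tetramers of pore subunits, joined in some cases by electrically silent subunits that form no channel alone and by cytoplasmic or membrane-spanning accessory subunits. Inward rectifiers (Kir) and tandem-pore (K2P) leak channels act near rest in neurons and glia, and calcium- or sodium-activated channels shape the afterhyperpolarisation that follows spikes. In cortex, changes in these currents alter how readily pyramidal cells and fast-spiking interneurons fire.

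Promoter sequence is shown for those members that passed a test, since they carry the differences described here. The 5 genes were Kcnv1, Kcna4, Kcnn2, Kcnk13 and Kcnn4. RefSeq promoter windows (GRCm38.p6, 250 bases before a transcript start of that table) were read for Kcna4, Kcnk13 and Kcnn4. The promoter reference had no window for Kcnv1, and none is shown here for Kcnn2. For Kcnk13 and Kcnn4 that start lies inside the gene's annotated span. They are printed 5′ to 3′ with each CpG in capitals, on the plus strand in all 3 cases, for Kcna4 at chr2:107290339-107290588, for Kcnk13 at chr12:99964249-99964498 and for Kcnn4 at chr7:24370013-24370262.
Kcna4: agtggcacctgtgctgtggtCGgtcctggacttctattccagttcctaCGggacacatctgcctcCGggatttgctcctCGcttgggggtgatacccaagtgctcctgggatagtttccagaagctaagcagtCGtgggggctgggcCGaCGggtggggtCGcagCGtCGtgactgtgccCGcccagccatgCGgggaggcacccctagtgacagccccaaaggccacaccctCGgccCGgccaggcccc
Kcnk13: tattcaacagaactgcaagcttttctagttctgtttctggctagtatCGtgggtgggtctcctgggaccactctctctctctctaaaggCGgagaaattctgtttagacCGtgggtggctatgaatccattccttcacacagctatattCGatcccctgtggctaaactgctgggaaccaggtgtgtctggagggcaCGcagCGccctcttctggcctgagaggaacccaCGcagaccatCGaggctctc
Kcnn4: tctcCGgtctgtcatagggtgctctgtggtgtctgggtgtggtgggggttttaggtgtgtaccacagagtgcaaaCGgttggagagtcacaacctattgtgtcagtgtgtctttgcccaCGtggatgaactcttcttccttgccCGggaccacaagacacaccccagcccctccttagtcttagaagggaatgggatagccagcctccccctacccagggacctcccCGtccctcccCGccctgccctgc
The Kcna4 window held 14 CpG at 65.2% G+C, more CpG than 70.6% of all 32851 windows in the table. The Kcnk13 window held 8 CpG at 52.8% G+C, and the Kcnn4 window held 6 at 58.8%, which are above 57.0% and 49.6% of all windows. Over the 93 windows of the 68 members found in the table, the median was 7 CpG and 58.8% G+C, against 6 CpG and 52.4% over all windows. The letters GGGCGG, on either strand, were in 44.1% of the members' windows and 32.7% of all windows, and TATAAA was in 3.23% and 12.4%. AGAACA was in 12.9% and 16.1%, and TGACG in 17.2% and 17.8%. Of these 4 motifs, the Kcna4 and Kcnn4 windows each held 1 GGGCGG and none of the others, and the Kcnk13 window held none. These matches describe letters in a window, not bound sites.

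Among the members, 21 averaged at least 100 CPM over the 9 libraries, 33 lay between 10 and 100 CPM, 18 between 1 and 10 CPM and 21 below 1 CPM. Levels of different genes were compared per length, as CPM per kb of merged GENCODE M21 exons (92 members had a length). Kcnab2, a cytoplasmic Kv beta subunit that joins Kv1 channels in axons, was highest at 91.1 CPM per kb. Next came Kcnj4, an inward rectifier of forebrain neurons, at 64.0 CPM per kb, Kcna1, an axonal Kv1 pore subunit, at 56.0, and Kcnj10, the main inward rectifier of astrocytes, at 52.9. The leak channel Kcnk1 stood at 43.0 CPM per kb, the axonal Kv1 subunit Kcna2 at 42.2 and Kcnj9, a subunit of G-protein-gated rectifiers, at 39.8.

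Within the pore families the leading gene differed widely from the lowest. Kv1 channels ran from 0.00263 CPM per kb for Kcna7 to 56.0 for Kcna1, and Kir channels from 0.000929 for Kcnj1, a channel of the kidney tubule, to 64.0 for Kcnj4. Kcnc2, one of the Kv3 channels that let fast-spiking cells fire at high rates, stood at 24.7 CPM per kb. Kcnh3 led the Eag, Erg and Elk channels at 36.0 CPM per kb, Kcnd2 the A-type Kv4 channels at 25.1 and Kcnq5 the M-current Kv7 channels at 20.2. Kcnv1 led the silent subunits at 34.1 CPM per kb, just above Kcnf1 at 30.8. Kcnip3 led the Kv channel interacting proteins at 32.0 and Kcnmb4 the beta subunits of large-conductance calcium-activated (BK) channels at 25.1. Kcnt1, a sodium-activated channel, led the Slo family at 12.4, and Kcnn1 the small-conductance calcium-activated (SK) family at 4.47. Neighbours in this order could lie within their spread: Kcna1 and Kcnj10 had coefficients of variation of 11.6% and 8.47% over the 9 libraries, wider than the gap between 56.0 and 52.9 CPM per kb.

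**Figure D1:**
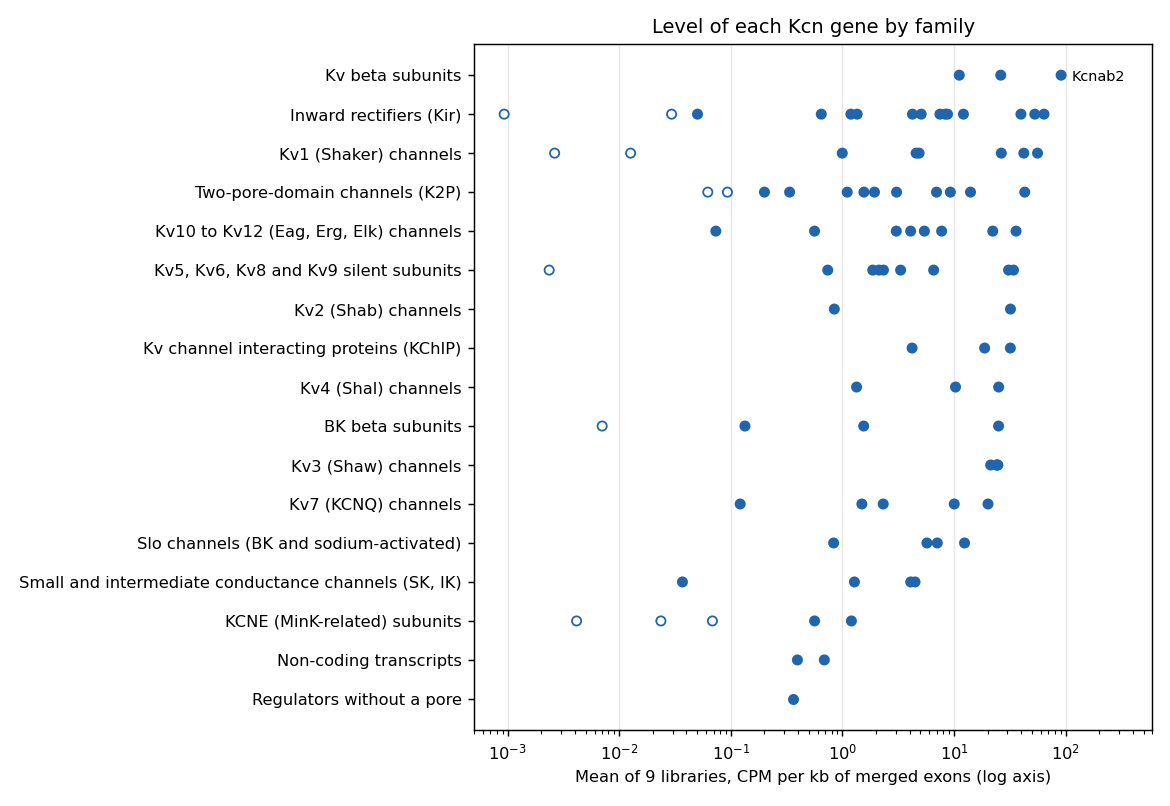
Mean level of each Kcn gene over 9 libraries, in CPM per kb of merged exons on a log axis, by family; filled points are the tested members, open points those too low to test. Kcnab2, the only gene named, was highest at 91.1 CPM per kb.

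Differences were tested with edgeR's quasi-likelihood test over 15144 genes, with Benjamini-Hochberg adjusted p-values called at 0.05, and 82 of the 93 members were abundant enough to test. The other 11 (Kcna7, Kcna10, Kcne1, Kcne2, Kcne3, Kcnj1, Kcnj15, Kcnk7, Kcnk15, Kcnmb3 and Kcnv2) never exceeded 13 counts in a library or 0.186 CPM on average. The limit that a count of 0 allows, 3 counts, equals 0.0711 CPM at the greatest depth and 0.101 CPM at the least, for counting error only.

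Between stressed mice given the KDM5C inhibitor and those given vehicle, Kcnv1 and Kcna4 fell and no Kcn gene rose. Kcnv1, the silent subunit that changes the gating of other Kv channels when it joins them, fell by 28.8%. Kcna4, a Kv1 pore subunit that gives a fast-inactivating A-type current, fell by 24.9%. These 2 of 82 members are 2.44%, against 2.51% of all genes tested, 0.891% higher and 1.62% lower, so the members passed about as often as any gene.

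Kcnv1 (NCBI gene 67498, chr15:45096086-45115912) stood at 125, 126 and 125 CPM in the SA:ANH-KDM5Ci libraries, 171, 183 and 174 CPM in the SA:ANH-vehicle libraries and 150.2, 176 and 178 CPM in the NS libraries. The 3 inhibitor libraries lay within 2 CPM of each other and below all 6 others, and the vehicle and NS libraries overlapped. The log2 fold change of SA:ANH-KDM5Ci against SA:ANH-vehicle was -0.49 (SE 0.06, edgeR adjusted p = 0.000743).

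Kcna4 (gene 16492, chr2:107290589-107326804), whose promoter window is shown with the sequences, stood at 19.9, 18.0 and 17.9 CPM in SA:ANH-KDM5Ci, 24.4, 26.4 and 23.4 CPM in SA:ANH-vehicle and 25.3, 27.1 and 29.0 CPM in NS. All 3 inhibitor libraries were again below the other 6. Its log2 fold change against SA:ANH-vehicle was -0.41 (SE 0.07, edgeR adjusted p = 0.00801), and without SA:ANH-vehicle replicate 2 the adjusted p was 0.0543.

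**Figure D2:**
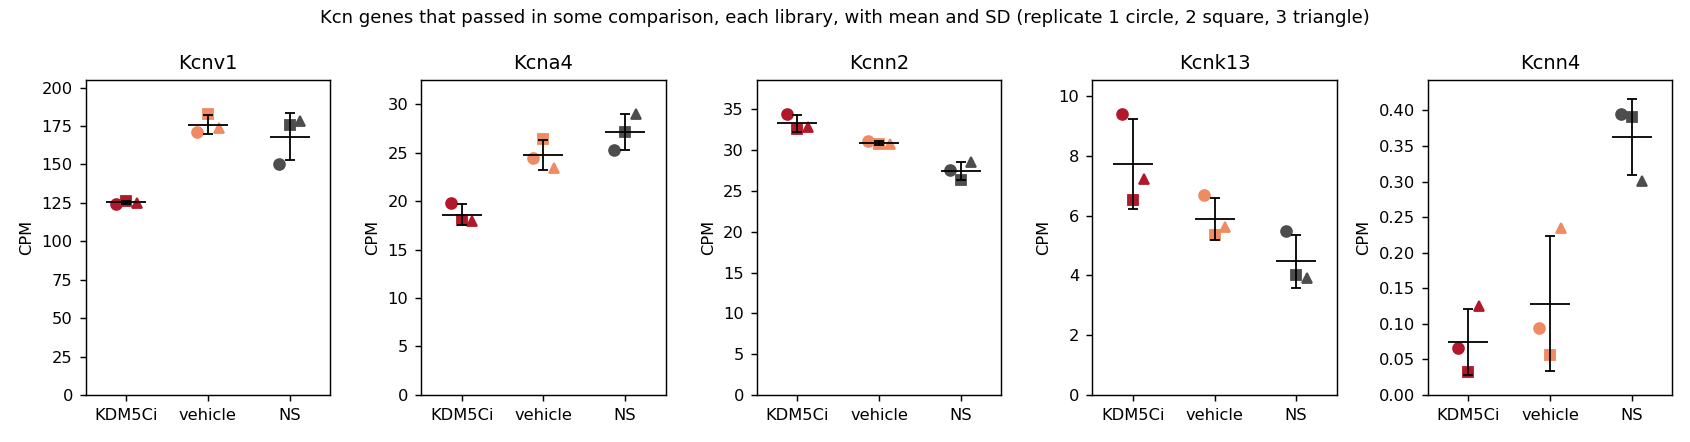
CPM of the 5 Kcn genes that passed in some comparison, in each library of SA:ANH-KDM5Ci, SA:ANH-vehicle and NS; points are libraries and bars the mean and SD of 3. The Kcnv1 and Kcna4 points of SA:ANH-KDM5Ci lie below all others, and those of Kcnn2 and Kcnk13 lie above all NS points.

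Both genes and the meningeal markers were lowest in the inhibitor group. Within SA:ANH-vehicle, replicate 1 had the highest meningeal sum (191 CPM, against 126 and 121 CPM) but the lowest Kcnv1, with Kcna4 in the middle. Within NS, replicate 1 had the lowest meningeal sum (106 CPM, against 157 and 170 CPM) and the lowest Kcnv1 and Kcna4. In a fit with the meningeal score (the median of the list's log2 levels, each centred on its mean over the libraries) added, the log2 fold change of Kcnv1 was -0.39 (edgeR adjusted p = 0.184) and that of Kcna4 was -0.32 (adjusted p = 0.479). With the striatal score added, Kcnv1 was at -0.41 (adjusted p = 0.0284) and Kcna4 at -0.42 (adjusted p = 0.0819). In the same fits the calls over all genes dropped too, to 13 higher and 8 lower with the meningeal score and 46 higher and 68 lower with the striatal score, where the fit without a score had 135 and 245. The meningeal sums of SA:ANH-KDM5Ci did not overlap those of SA:ANH-vehicle or NS, so meningeal level and inhibitor group cannot be told apart. The excitatory markers summed to 2081 to 2172 CPM in SA:ANH-KDM5Ci, 2094 to 2220 CPM in SA:ANH-vehicle and 2224 to 2296 CPM in NS. This sum is mostly Slc17a7. The score of the 7 genes gave -0.0797 to -0.0103 in SA:ANH-KDM5Ci, -0.00299 to 0.0251 in SA:ANH-vehicle and -0.000119 to 0.0164 in NS, so the inhibitor libraries were lowest on that scale. The part of cell makeup in the falls was not tested.

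**Figure D3:**
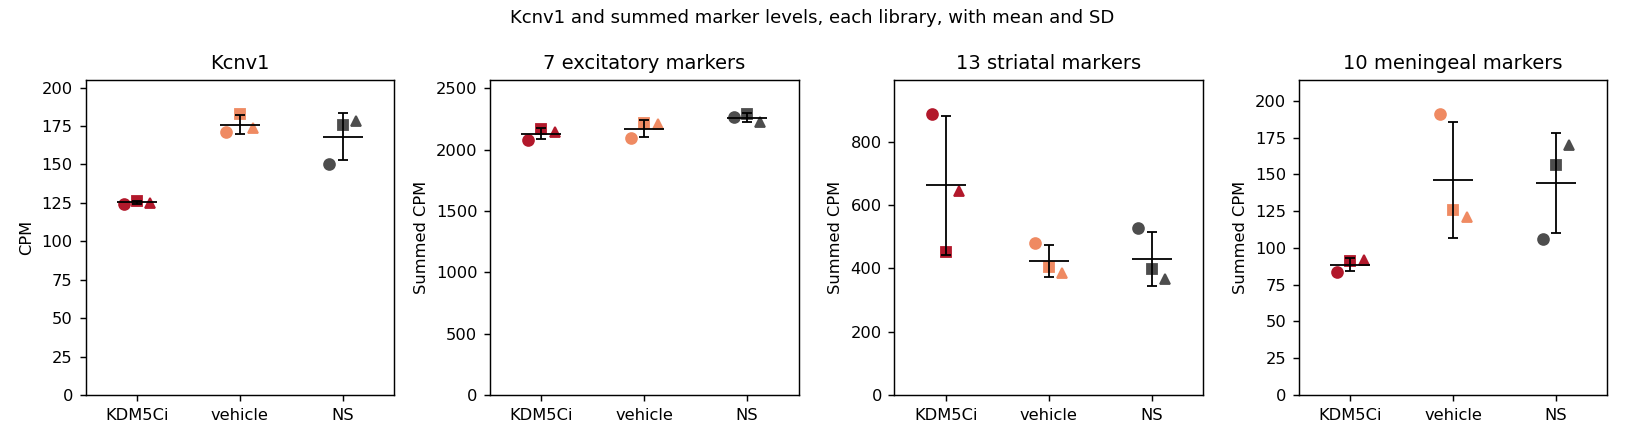
Kcnv1 in CPM beside the summed CPM of 7 excitatory, 13 striatal and 10 meningeal marker genes, in each library of SA:ANH-KDM5Ci, SA:ANH-vehicle and NS; points are libraries and bars the mean and SD of 3. Kcnv1 and the meningeal sum are both lowest in SA:ANH-KDM5Ci, and the excitatory sums of SA:ANH-KDM5Ci and SA:ANH-vehicle overlap.

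The other voltage-gated members did not pass against vehicle. The 28 pore subunits tested had 16 positive and 12 negative fold changes, and Kcna4 alone passed. Of those with the most counts, Kcna2 averaged 509.8 ± 2.98 CPM in SA:ANH-KDM5Ci and 509.7 ± 63.5 CPM in SA:ANH-vehicle (SD, n = 3 each). Kcnc1 had a log2 fold change of -0.00 (SE 0.07), Kcnc2 of 0.03 (SE 0.05), Kcnh3 of 0.06 (SE 0.04) and Kcnd2 of 0.06 (SE 0.05), with edgeR adjusted p-values from 0.606 to 0.993. Kcna1 averaged 291 ± 7.71 CPM in SA:ANH-KDM5Ci and 264 ± 46.9 CPM in SA:ANH-vehicle, where replicate 1 stood apart at 318 CPM. Kcna5, a Kv1 subunit at low level here, had the largest positive log2 fold change of the tested members, 0.73 (SE 0.23, adjusted p = 0.150), with 5.15, 2.84 and 3.06 CPM in SA:ANH-KDM5Ci against 1.78, 2.52 and 2.35 CPM in SA:ANH-vehicle. Among the 8 silent subunits, 4 fold changes were positive and 4 negative, and Kcnv1 alone passed. Its near equal in level, Kcnf1, averaged 147 ± 6.29 CPM in SA:ANH-KDM5Ci and 146 ± 10.6 CPM in SA:ANH-vehicle.

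None of the 12 accessory members passed, and 9 of 12 had positive fold changes. Kcnab1, a beta subunit that speeds inactivation of Kv1 channels, came nearest, at 114, 97.0 and 108 CPM in SA:ANH-KDM5Ci against 92.4, 91.9 and 88.1 CPM in SA:ANH-vehicle. All 3 inhibitor libraries were above the vehicle libraries, and edgeR put the difference at 0.22 on the log2 scale (SE 0.06, adjusted p = 0.0831). DESeq2 called it (adjusted p = 0.0230), and edgeR did so without SA:ANH-KDM5Ci replicate 2 (adjusted p = 0.0262). Kcnab2 had a log2 fold change of 0.06 (SE 0.05), Kcnip3 of 0.07 (SE 0.05), Kcnmb4 of 0.10 (SE 0.07) and Kcne1l of 0.15 (SE 0.15). Kcnrg, a soluble protein that acts on Kv channel assembly, averaged 0.766 ± 0.183 CPM in SA:ANH-KDM5Ci and 0.504 ± 0.0726 CPM in SA:ANH-vehicle (edgeR adjusted p = 0.333). It overlaps the more abundant genes Trim13 and Dleu2, with means of 268 and 146 counts against 22.4 for Kcnrg. The use of strand in counting is unstated.

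Of 13 inward rectifiers, 8 had negative fold changes against vehicle and none passed. Kcnj9 stood at 149.7, 163 and 160.1 CPM in SA:ANH-KDM5Ci and 190.1, 173 and 177 CPM in SA:ANH-vehicle. The groups did not overlap, and the log2 fold change was -0.19 (SE 0.05, edgeR adjusted p = 0.0889; DESeq2 adjusted p = 0.0376). Kcnj10, its neighbour on chromosome 1 at a distance of 11888 bases, was at -0.03 on the log2 scale (SE 0.09, edgeR adjusted p = 0.914). Kcnj13, a rectifier of the choroid plexus, averaged 0.617 ± 0.170 CPM in SA:ANH-KDM5Ci and 1.07 ± 0.237 CPM in SA:ANH-vehicle (log2 fold change -0.82, SE 0.26, adjusted p = 0.149). It overlaps the more abundant gene Gigyf2, and the 6 choroid and ependymal markers summed to 4.43 to 6.76 CPM in SA:ANH-KDM5Ci and 4.53 to 8.58 CPM in SA:ANH-vehicle.

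The 10 leak channels tested had 6 positive and 4 negative fold changes and none passed. Kcnk1 stood at 105, 99.7 and 108 CPM in SA:ANH-KDM5Ci and 97.3, 91.5 and 87.8 CPM in SA:ANH-vehicle, without overlap (log2 fold change 0.18, SE 0.06, edgeR adjusted p = 0.152). Kcnk6, a relative of Kcnk1, averaged 7.74 ± 0.879 CPM in SA:ANH-KDM5Ci and 5.95 ± 0.360 CPM in SA:ANH-vehicle (log2 fold change 0.38, SE 0.12, adjusted p = 0.129). The 8 calcium- and sodium-activated channels had 4 fold changes of each sign and no call. Kcnma1, the BK channel pore, averaged 115 ± 9.45 CPM in SA:ANH-KDM5Ci and 119 ± 15.3 CPM in SA:ANH-vehicle.

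Over all 82 members the median log2 fold change against vehicle was 0.01, against 0.00 over all genes tested. The SA:ANH-KDM5Ci libraries did not overlap the SA:ANH-vehicle libraries in 16 members (19.5%), 10 above and 6 below, close to the 18.9% of all genes (7.92% above and 10.9% below). DESeq2 called 1 member higher (Kcnab1) and 3 lower (Kcnv1, Kcna4 and Kcnj9), against 1.25% and 1.93% of all genes. An unadjusted p under 0.05 was reached by 10 members, against 14.2% of all genes. For the 54 members above 10 CPM the median SE was 0.07, and 50 of them had a fold change smaller than 0.2 in size on the log2 scale.

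**Figure D4:**
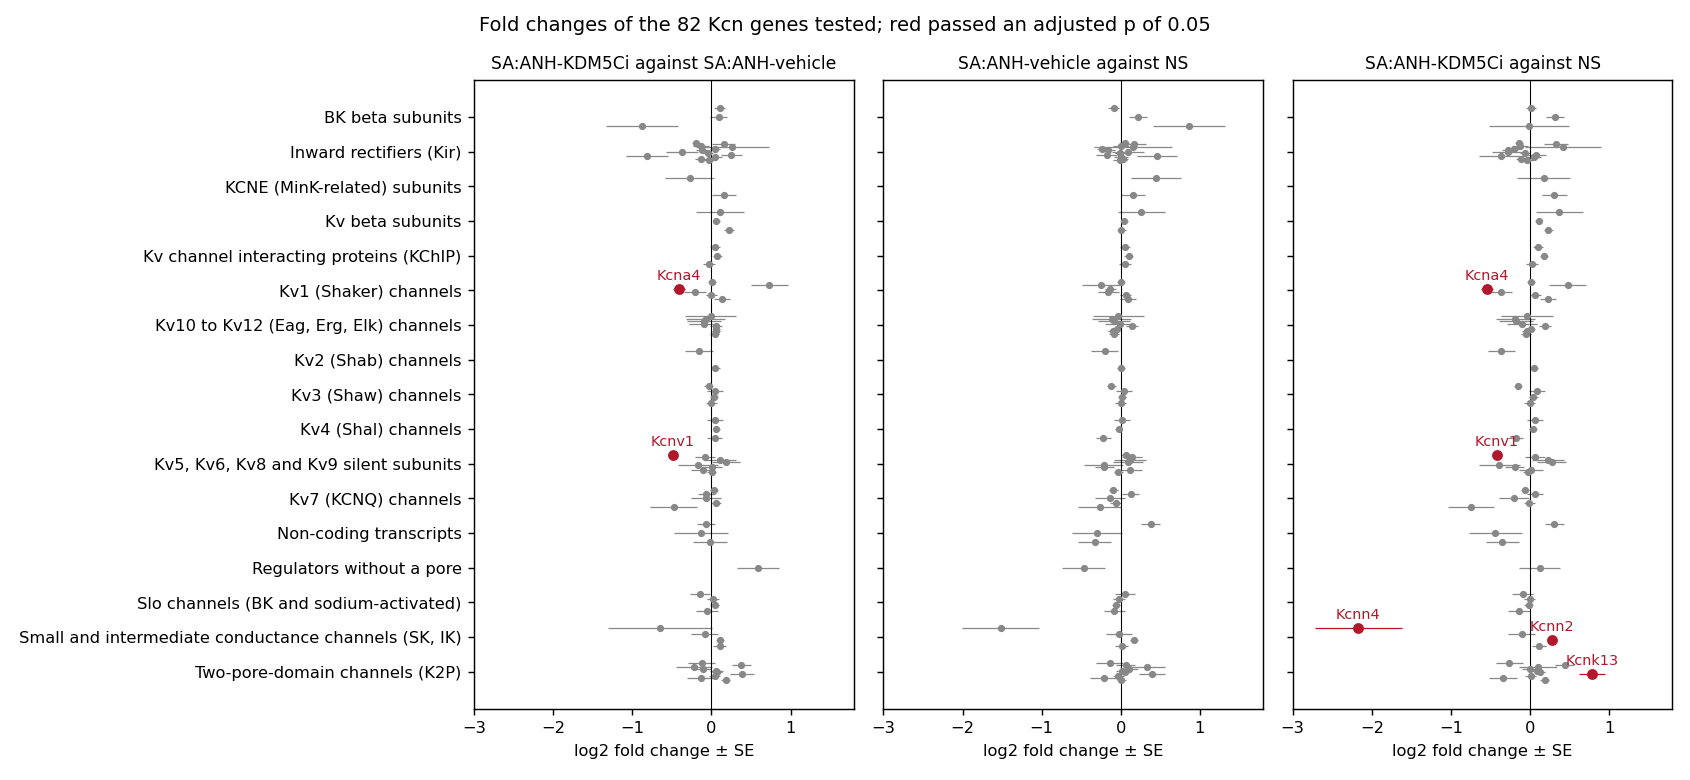
Log2 fold change with SE of the 82 tested Kcn genes by family, for SA:ANH-KDM5Ci against SA:ANH-vehicle, SA:ANH-vehicle against NS and SA:ANH-KDM5Ci against NS; red points passed at an edgeR adjusted p of 0.05. The counts of red points are 2, 0 and 5, and most points lie near 0.

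Between stressed mice given vehicle and unstressed mice, no Kcn gene passed with edgeR. Over all genes 2 of 15144 passed, which is 0.0132%. By unadjusted p under 0.05, edgeR gave 7 of 82 members and 8.21% of all genes. DESeq2 called 1 member, Kcnj4 (adjusted p = 0.0380), as lower, against 0.251% of all genes lower. The groups did not overlap in 10 members (12.2%), 3 above and 7 below, against 15.1% of all genes (8.29% above and 6.81% below). Of the 54 members above 10 CPM, 50 had a log2 fold change smaller than 0.2 in size.

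Kcnj4 had the lowest p. It stood at 118, 134 and 134 CPM in SA:ANH-vehicle and 156, 145 and 155 CPM in NS. The vehicle libraries all lay below the NS libraries, and the difference was -0.24 on the log2 scale (SE 0.06, edgeR adjusted p = 0.250). In SA:ANH-KDM5Ci it stood at 128, 129.99 and 140.2 CPM, which overlaps the vehicle range.

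Kcnq1ot1, the imprinted non-coding transcript that runs antisense within Kcnq1, averaged 71.8 ± 9.60 CPM in SA:ANH-vehicle and 55.1 ± 8.99 CPM in NS, with overlap (log2 fold change 0.38, SE 0.12, edgeR adjusted p = 0.415). As the use of strand in counting is unstated, reads of Kcnq1ot1 and Kcnq1 cannot be told apart; the means were 2279 and 17.3 counts. The same holds for Kcnd3 with Kcnd3os and for Kcnmb4 with Kcnmb4os1. Of the voltage-gated pore subunits, 19 of 28 had negative fold changes in this comparison, and of the accessory members 10 of 12 had positive ones, none of them passing. Kcnv1 and Kcna4 had log2 fold changes of 0.07 (SE 0.06, adjusted p = 0.842) and -0.13 (SE 0.07, adjusted p = 0.686) in SA:ANH-vehicle against NS.

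Between stressed mice given the inhibitor and unstressed mice, 5 of 82 members passed. Kcnn2, an SK channel of neurons, and Kcnk13, a leak channel known from microglia, rose. Kcna4 and Kcnv1 fell, and Kcnn4, the intermediate-conductance channel of blood and immune cells, was called lower. The 5 are 6.10% of the members, against 3.97% of all genes (1.86% higher and 2.11% lower). Of the 5, Kcnn4 was kept for testing through its NS libraries alone, the group where it was high. Its call and its part in the 6.10% are therefore not separate support. The inhibitor and NS libraries did not overlap in 24 members (29.3%), 14 above and 10 below, against 23.5% of all genes (11.5% above and 12% below). Stress and inhibitor differ together here, so their shares in these differences cannot be told apart.

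Kcnn2 (gene 140492) stood at 34.5, 32.5 and 32.8 CPM in SA:ANH-KDM5Ci, 31.1, 30.7 and 30.7 CPM in SA:ANH-vehicle and 27.5, 26.4 and 28.6 CPM in NS. The 3 groups were fully separate, with the vehicle libraries between the other groups. The log2 fold change of SA:ANH-KDM5Ci against NS was 0.28 (SE 0.05, edgeR adjusted p = 0.0124), a rise of 21.1%. SA:ANH-KDM5Ci against SA:ANH-vehicle gave 0.11 (SE 0.05, adjusted p = 0.398) and SA:ANH-vehicle against NS gave 0.17 (SE 0.05, adjusted p = 0.404). The adjusted p against NS was 0.0693 when NS replicate 2 was left out and 0.0643 when SA:ANH-KDM5Ci replicate 1 was. With the striatal score added, the log2 fold change against NS was 0.25 (adjusted p = 0.134), and with the meningeal score it was 0.29 (adjusted p = 0.207). The related SK channels Kcnn1 and Kcnn3 did not pass.

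Kcnk13 (gene 217826, chr12:99963149-100062682) stood at 9.42, 6.53 and 7.22 CPM in SA:ANH-KDM5Ci, 6.68, 5.35 and 5.62 CPM in SA:ANH-vehicle and 5.48, 4.01 and 3.91 CPM in NS. All inhibitor libraries were above all NS libraries, and the vehicle group overlapped both. The log2 fold change of SA:ANH-KDM5Ci against NS was 0.78 (SE 0.16, edgeR adjusted p = 0.0169). With the striatal score added it was 0.43 (adjusted p = 0.167), and with the meningeal score 0.75 (adjusted p = 0.284). It also missed 0.05 without SA:ANH-KDM5Ci replicate 1 (0.0766), NS replicate 2 (0.0803) or NS replicate 3 (0.0884). The 6 microglial markers summed to 432, 364 and 359 CPM in SA:ANH-KDM5Ci, 372, 388 and 384 CPM in SA:ANH-vehicle and 358, 361 and 369 CPM in NS. SA:ANH-KDM5Ci replicate 1, the highest library for Kcnk13, was also the highest in this sum. In SA:ANH-vehicle and in NS, replicate 1 was highest for Kcnk13 but lowest in this sum. None of the 6 passed, and in SA:ANH-KDM5Ci against NS 4 had positive and 2 negative fold changes. The 7 oligodendrocyte markers summed highest in replicate 1 of each group, at 3462 CPM in SA:ANH-KDM5Ci, 2964 in SA:ANH-vehicle and 2957 in NS. The part of either cell type in the rise was not tested.

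Kcnn4 (gene 16534, chr7:24369826-24385212) was near the detection limit, with 2, 1 and 5 counts in SA:ANH-KDM5Ci, 4, 2 and 8 counts in SA:ANH-vehicle and 14, 14 and 9 counts in NS. The NS libraries were above all inhibitor and vehicle libraries. The summed counts were 8 in SA:ANH-KDM5Ci and 37 in NS, a depth-corrected ratio of 0.213 with a 95% counting interval from 0.0858 to 0.465. This interval covers counting error only and leaves out the spread between libraries. Only the NS libraries, at 0.396, 0.390 and 0.301 CPM, met the low-count filter for testing. The other libraries were at 0.235 CPM or less. As Kcnn4 was kept through the group where it was high, neither its call nor this interval is separate support for a fall. The edgeR adjusted p was 0.0417 and that of DESeq2 0.0929. Leaving out any 1 of the 6 inhibitor and NS libraries ended the call, with adjusted p-values from 0.0577 to 0.131.

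Kcna4 and Kcnv1 lay below NS as well as below vehicle, against the same inhibitor libraries. The log2 fold change of SA:ANH-KDM5Ci against NS was -0.55 for Kcna4 (SE 0.07, edgeR adjusted p = 0.00104) and -0.42 for Kcnv1 (SE 0.06, adjusted p = 0.00181). Both calls were kept in all 9 fits that left out 1 library. With the meningeal score added, the log2 fold change was -0.46 for Kcna4 (adjusted p = 0.109) and -0.32 for Kcnv1 (adjusted p = 0.174). With the striatal score added it was -0.55 for Kcna4 (adjusted p = 0.0223) and -0.35 for Kcnv1 (adjusted p = 0.0544). Over all genes these fits called 56 higher and 43 lower with the meningeal score and 74 higher and 72 lower with the striatal score, where the fit without a score had 281 and 320.

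By class, 11 of the 12 accessory members had positive fold changes in SA:ANH-KDM5Ci against NS and none passed, with a median log2 fold change of 0.15 beside -0.00 over all genes. The nearest to the threshold were Kcnab1 at 0.23 (SE 0.06, edgeR adjusted p = 0.0527) and Kcnip3, a calcium-binding subunit of Kv4 channels, at 0.17 (SE 0.05, adjusted p = 0.0913). Kcnip3 averaged 120 ± 7.24 CPM in SA:ANH-KDM5Ci, 114 ± 1.43 CPM in SA:ANH-vehicle and 106 ± 3.99 CPM in NS. The inward rectifiers had 9 of 13 negative fold changes and a median of -0.11. Kcnj3, a subunit of G-protein-gated rectifiers, averaged 57.6 ± 4.93 CPM in SA:ANH-KDM5Ci, 62.5 ± 7.27 CPM in SA:ANH-vehicle and 69.7 ± 1.79 CPM in NS, with a log2 fold change against NS of -0.28 (SE 0.08, adjusted p = 0.0750). Kcnj4 had -0.20 (SE 0.06, adjusted p = 0.0927). Of the leak channels 8 of 10 were positive, with Kcnk6 at 0.44 (SE 0.12, adjusted p = 0.0575) and Kcnk1 at 0.18 (SE 0.06, adjusted p = 0.105). DESeq2 added Kcnab1, Kcnk6 and Kcnip3 as higher and Kcnj3 as lower in this comparison and did not call Kcnn4, which made 5 higher and 3 lower, against 2.81% and 2.68% of all genes.

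Potassium channel genes and partners without a Kcn symbol were read from a list of 31 genes, of which 29 were tested. In SA:ANH-KDM5Ci, 1 of the 29 (3.45%), not reported here, passed as lower against SA:ANH-vehicle and against NS. Over all genes 2.51% and 3.97% passed in these comparisons. No gene of the list passed in SA:ANH-vehicle against NS. The genes named next missed the threshold. Akap5, a scaffold that brings kinases to Kv7 channels, had a log2 fold change of -0.20 in SA:ANH-KDM5Ci against NS (SE 0.06, edgeR adjusted p = 0.0860). Ank3, which anchors Kv7 channels at the axon's start, had 0.14 in SA:ANH-KDM5Ci against SA:ANH-vehicle (adjusted p = 0.306). In SA:ANH-vehicle against NS, Tmem175, a lysosomal potassium channel, had -0.14 (adjusted p = 0.452) and Dpp6, a Kv4 accessory subunit, had -0.12 (adjusted p = 0.550).

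Some members varied widely between the libraries of a group. The coefficient of variation over all 9 libraries had a median of 7.87% for the 54 members above 10 CPM, against 5.98% for 9777 genes above that level. This measure takes in differences between the groups as well as spread within them. Kcnab3, a Kv beta subunit, varied most, at 26.4%, with 80.2, 68.2 and 102 CPM in SA:ANH-KDM5Ci, 110.0, 59.7 and 62.1 CPM in SA:ANH-vehicle and 80.3, 60.6 and 52.8 CPM in NS. The silent subunit Kcns1 was likewise highest in SA:ANH-vehicle replicate 1 at 24.0 CPM and in SA:ANH-KDM5Ci replicate 3 at 23.2 CPM, with 14.4 to 17.9 CPM in the other libraries. The 7 interneuron markers summed to 986 to 1065 CPM in SA:ANH-KDM5Ci, 939 to 1030.0 CPM in SA:ANH-vehicle and 948 to 1012 CPM in NS, and the part of cell makeup in this variation was not tested. Kcnh5, Kcnh7, Kcnq3 and Kcnk9 varied by 16.9% to 20.1% with their highest values in SA:ANH-vehicle replicate 1 or NS replicate 2. None of these genes other than Kcnv1 and Kcna4 passed in any comparison.

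**Figure D5:**
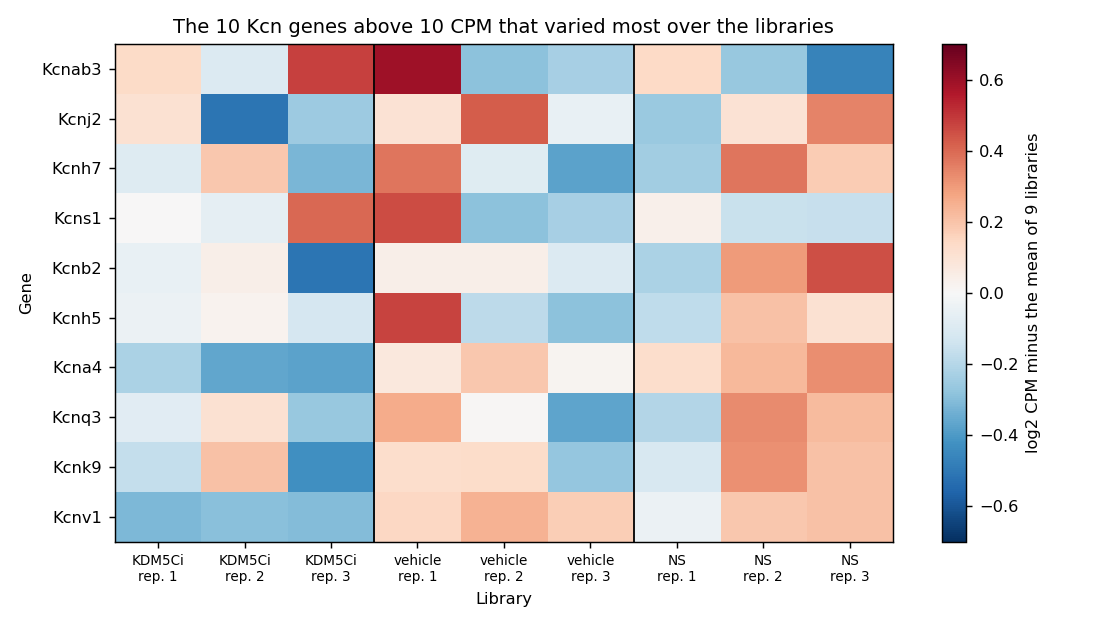
Log2 CPM minus its mean over 9 libraries for the 10 Kcn genes above 10 CPM with the largest coefficient of variation, one column per library in the order SA:ANH-KDM5Ci, SA:ANH-vehicle and NS. Only Kcnv1 and Kcna4 of these 10 are lower in all 3 SA:ANH-KDM5Ci libraries than in every other library, while Kcnab3 and Kcns1 are high in SA:ANH-vehicle replicate 1 and SA:ANH-KDM5Ci replicate 3.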

How the data were processed

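The authors deposited 1 table of expected counts per gene for 9 libraries. Per the submitters' processing notes, reads were handled with Trimmomatic 0.32, TopHat2 2.0.13 and Bowtie2 2.2.3 on mm10. The counting tool and its use of strand are not given in the sources used here. Expected counts were rounded. Symbols came from RefSeq (GRCm38.p6); 32891 IDs matched, and 57 unmatched features above 0 held 0.367% of counts. edgeR 4.0.16 (R 4.3.3) filterByExpr kept 15144 genes, TMM factors were 0.987 to 1.01, and glmQLFit (robust) with glmQLFTest gave all 3 comparisons from 1 fit of 9 libraries. The SE is the size of the log2 fold change divided by the square root of F. The code was tested on simulated data. Alternatives were DESeq2 1.42.0, other scaling, other filters, a replicate block, marker scores as covariates and each library left out. Named genes were those that passed, the 5 of lowest p per comparison, the 10 highest by CPM and the highest of each family, plus, of the partner list, those that passed and the 2 of lowest p per comparison; all others named were chosen after their values were seen. Members and lists were chosen with earlier results of these data known. Results for some genes are not reported here.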

Additional observations from a re-analysis of the deposited data

How the results depend on the processing

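In SA:ANH-KDM5Ci against SA:ANH-vehicle, with 0 members higher and 2 lower in 2 families, DESeq2 gave 1 higher and 4 families with a call, an adjusted p of 0.1 gave 1 and 4, the striatal score 1 lower in 1 family, and the meningeal score 0 lower in 0 families. Leaving out 1 library gave 0 to 1 higher, 1 to 3 lower and 1 to 3 families. In SA:ANH-vehicle against NS, DESeq2 gave 1 lower in 1 family in place of 0. In SA:ANH-KDM5Ci against NS, with 2 higher and 3 lower in 4 families, DESeq2 gave 5 higher and 7 families, an adjusted p of 0.1 gave 5 higher, 5 lower and 7 families, the striatal score 0 higher, 1 lower and 1 family, and the meningeal score 0, 0 and 0. With either score, calls over all genes fell too. Leaving out 1 library gave 0 to 4 higher, 2 to 5 lower and 2 to 6 families. The cause of these shifts was not tested. Kcnn4 in SA:ANH-KDM5Ci against SA:ANH-vehicle had a log2 fold change of -0.65, and -1.29 to 0.0352 with 1 library left out, reversing without SA:ANH-vehicle replicate 3. Of 452 values for single genes, 411 kept their direction and side of the threshold, 30 lost a call, 10 gained one and 1 reversed. No scaling moved the median of all genes by more than 0.023 (log2). With the replicate number as a block, the counts were 0 higher and 2 lower, 0 and 0, and 2 and 3 in the 3 comparisons, and no call changed. Deviations of same-numbered libraries correlated from -0.144 to 0.238. Between the 2 stressed groups they correlated from 0.084 to 0.238, and those of different numbers from -0.251 to 0.085. These correlations do not settle whether the numbers pair samples. The labels do not say that they do, so the main fit did not treat them as pairs. Depth limits the 11 untested members and Kcnn4.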
